A study of Mus musculus with 3 samples.

Results

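The genes examined here act in the uptake of dying cells by phagocytes. They are 10 of the 31053 genes listed in the deposited tables, were chosen by their symbols, and were all present in each of the 3 runs. Mertk, Axl, Timd4 and Lrp1 encode uptake receptors, Gas6, Pros1 and Mfge8 encode secreted bridging proteins, Cd36 and Msr1 encode scavenger receptors, and Elmo1 encodes a signalling protein used during engulfment. The cells were tdTomato+ hippocampal myeloid cells of mice of the genotype Cx3cr1CreERT2/+; Rosa26tdTomato/+; NestinTK-eGFP/+, in which tamoxifen at 100 mg/kg on 4 consecutive days switched on the reporter. The reporter therefore marks cells that expressed Cx3cr1 at that time, and every cell carried the Nestin-driven thymidine kinase and eGFP transgene, so no library without it serves as a comparison. Age is not given in the labels used here. The 12 animals of the series (6 male, 6 female) are not assigned to the 3 runs by the labels. Shifts shared by a whole run are taken out by the run block. The p-values therefore measure how far differences between populations varied from run to run, pooled over the populations of the fit. This spread may be partly technical.

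Apoptotic cells display phosphatidylserine on their outer surface, and phagocytes recognise it either directly or through a soluble bridge. Timd4 protein binds phosphatidylserine directly, whereas GAS6 and protein S (Pros1) link it to the TAM receptor kinases, a family that includes MERTK and AXL, and MFGE8 links it to integrins. In the hippocampal neurogenic niche most newborn neurons die before they mature, and microglia remove them.

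In total 19791 cells were kept (6993, 6720 and 6078 in runs 1, 2 and 3), with median depths of 4425, 3438 and 3696 unique molecular identifiers (UMIs). Pairs of runs shared 7 to 8 cell barcodes. Each cell was placed in a population by the detection of marker genes, none of which is among the 10 genes. Of the kept cells, 18847 (95.2%) carried at least 5 of 8 microglia markers and no other signature, and they served as reference microglia. The other populations with at least 10 cells in every run were border macrophage-like cells (171), cells with at least 3 of 4 MHC class II transcripts (110), microglia with astrocyte transcripts (160), with lipid-associated genes such as Spp1 and Lpl (100), with interferon-induced genes (79), with cell cycle genes (64), with Ccl3 and Ccl4 at 0.5% or more of their UMIs (61), and cells positive for Emp3, Fxyd5 and Tnfsf13b (54).

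The border macrophage-like and MHC class II populations were mixed in their markers. Of their cells, 96 of 171 and 68 of 110 also met the microglia gate. The border macrophage gate came before the MHC class II gate, so a cell that met both counted as border macrophage-like. Cells that met no further gate, the microglia gate aside, numbered 30, 16 and 32 of 82, 35 and 54 border macrophage-like cells in runs 1, 2 and 3. Among MHC class II cells they numbered 24, 18 and 25 of 37, 27 and 46. In border macrophage-like cells all 8 microglia markers were detected in every run, and these markers together stood at 15131, 9103 and 5062 CPM (UMIs scaled to all UMIs of the same population and run) in runs 1, 2 and 3, against 25810 to 34564 CPM in reference microglia. The 7 border macrophage markers (Mrc1, Pf4, Lyve1, Cd163, F13a1, Ms4a7, Cbr2) together reached 4814, 6269 and 8989 CPM there and 3.34 to 6.62 CPM in reference microglia. In run 1 the border macrophage-like cells had a median of 8033 UMIs, and 31.7% of them held UMIs of both Xist and Y-linked genes, which a single mouse cell would not express together. That share was 2.86% and 5.56% in runs 2 and 3. All 26 such cells of run 1 were among the 62 that also met the microglia gate. In the text below the border macrophage-like values are therefore also given for the 75 cells that did not meet it (20, 18 and 37 per run), a split added after these shares were seen.

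The sequences of the gene starts were compared because Mertk was high in reference microglia whereas Axl, Cd36 and Timd4 were low there. Of the 10 genes, 9 had an entry in the RefSeq promoter table of GRCm38.p6, and the 250 bases before the start site were read. The capitals mark matches on either strand to GGGCGG (the site bound by Sp1), TGCTGA (the core recognised by MAF proteins) and AGGTCA (the core recognised by nuclear receptors), with no overlaps among the matches shown.
Mertk chr2:128698665-128698914, plus strand: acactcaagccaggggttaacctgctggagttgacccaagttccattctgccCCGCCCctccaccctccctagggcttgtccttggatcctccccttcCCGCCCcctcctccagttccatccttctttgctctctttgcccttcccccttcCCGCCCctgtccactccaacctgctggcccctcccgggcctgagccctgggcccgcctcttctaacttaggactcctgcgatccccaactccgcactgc
Axl chr7:25788734-25788983, minus strand: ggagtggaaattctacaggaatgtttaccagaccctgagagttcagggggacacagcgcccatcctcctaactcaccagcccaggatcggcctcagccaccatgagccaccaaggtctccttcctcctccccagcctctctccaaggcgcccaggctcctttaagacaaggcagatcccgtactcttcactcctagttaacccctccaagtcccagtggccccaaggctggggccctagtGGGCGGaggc
Cd36 chr5:17835897-17836146, minus strand: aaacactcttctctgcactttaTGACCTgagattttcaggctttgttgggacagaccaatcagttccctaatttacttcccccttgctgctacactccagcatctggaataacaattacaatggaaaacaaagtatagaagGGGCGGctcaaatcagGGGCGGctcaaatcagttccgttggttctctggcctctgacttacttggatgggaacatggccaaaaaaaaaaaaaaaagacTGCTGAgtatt
Timd4 chr11:46810549-46810798, plus strand: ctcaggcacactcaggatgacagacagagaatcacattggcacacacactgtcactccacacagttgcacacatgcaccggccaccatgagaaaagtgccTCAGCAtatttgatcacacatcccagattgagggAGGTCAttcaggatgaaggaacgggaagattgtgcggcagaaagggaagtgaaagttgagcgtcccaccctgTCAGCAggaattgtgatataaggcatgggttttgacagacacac
The Mertk window held 3 GGGCGG matches and had a GC content of 63.6%, against a median of 52.4% over 32851 windows of the same length. The Axl window held 1 GGGCGG match at a GC content of 60.0%. The Cd36 window, which lies within the annotated span of the gene, held 2 GGGCGG matches, 1 TGCTGA match that starts 11 bases before the start site and 1 AGGTCA match, at 43.2% GC. The Timd4 window held no GGGCGG, 2 TGCTGA matches and 1 AGGTCA match at 50.0% GC. Of all 32851 windows, 32.7% held GGGCGG, 16.1% TGCTGA and 14.0% AGGTCA. GAAANNGAA (the core of the interferon-stimulated element), which 7.13% of all windows held, occurred once in the Timd4 window, apart from the capitals, and once in a window of Elmo1. No window of the matched genes held GAGGAAGT (the core of the PU.1 site) or TGANTCA (AP-1), which 2.44% and 6.75% of all windows held. GGGCGG also occurred in the windows of Gas6, Pros1, Mfge8 and Lrp1 and in 1 window of Elmo1. Their GC contents were 54.8% (Gas6), 64.4% (Pros1), 65.2% (Mfge8), 67.2% (Lrp1) and 61.6% (that window of Elmo1). These matches describe letters in these windows only.

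Most reference microglia held a transcript of the TAM receptor Mertk, and few held one of its relative Axl. Mertk (GRCm38 chr2:128698956-128802894, plus strand) stood at 516, 356 and 526 CPM in reference microglia of runs 1, 2 and 3, and 86.0%, 67.7% and 81.2% of the cells held at least 1 UMI. Run 2, the run of lowest depth, was the lowest. With every cell thinned to 1000 UMIs the shares were 39.2%, 30.3% and 39.4%, and run 2 was again the lowest. Run 2 was also the lowest for Lrp1 and Elmo1. Axl (chr7:25757273-25788705, minus strand) stood at 3.29, 2.44 and 3.19 CPM, and 197 of the 18847 cells (1.05%) held a UMI of it. Cells with T and NK cell markers numbered 13, of which 3 also met the microglia gate and 2 held both Xist and Y-linked UMIs. Of the 13, 2 held a Mertk UMI (15.4%, exact 95% interval 1.92 to 45.4%). None held an Axl, Cd36, Msr1 or Timd4 UMI, with an exact 95% interval of 0 to 24.7%. Median depths were 7375.5, 2233 and 4116.5 UMIs in runs 1, 2 and 3. Whether the Mertk UMIs came from cells that met the microglia gate was not tested.

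**Figure D1:**
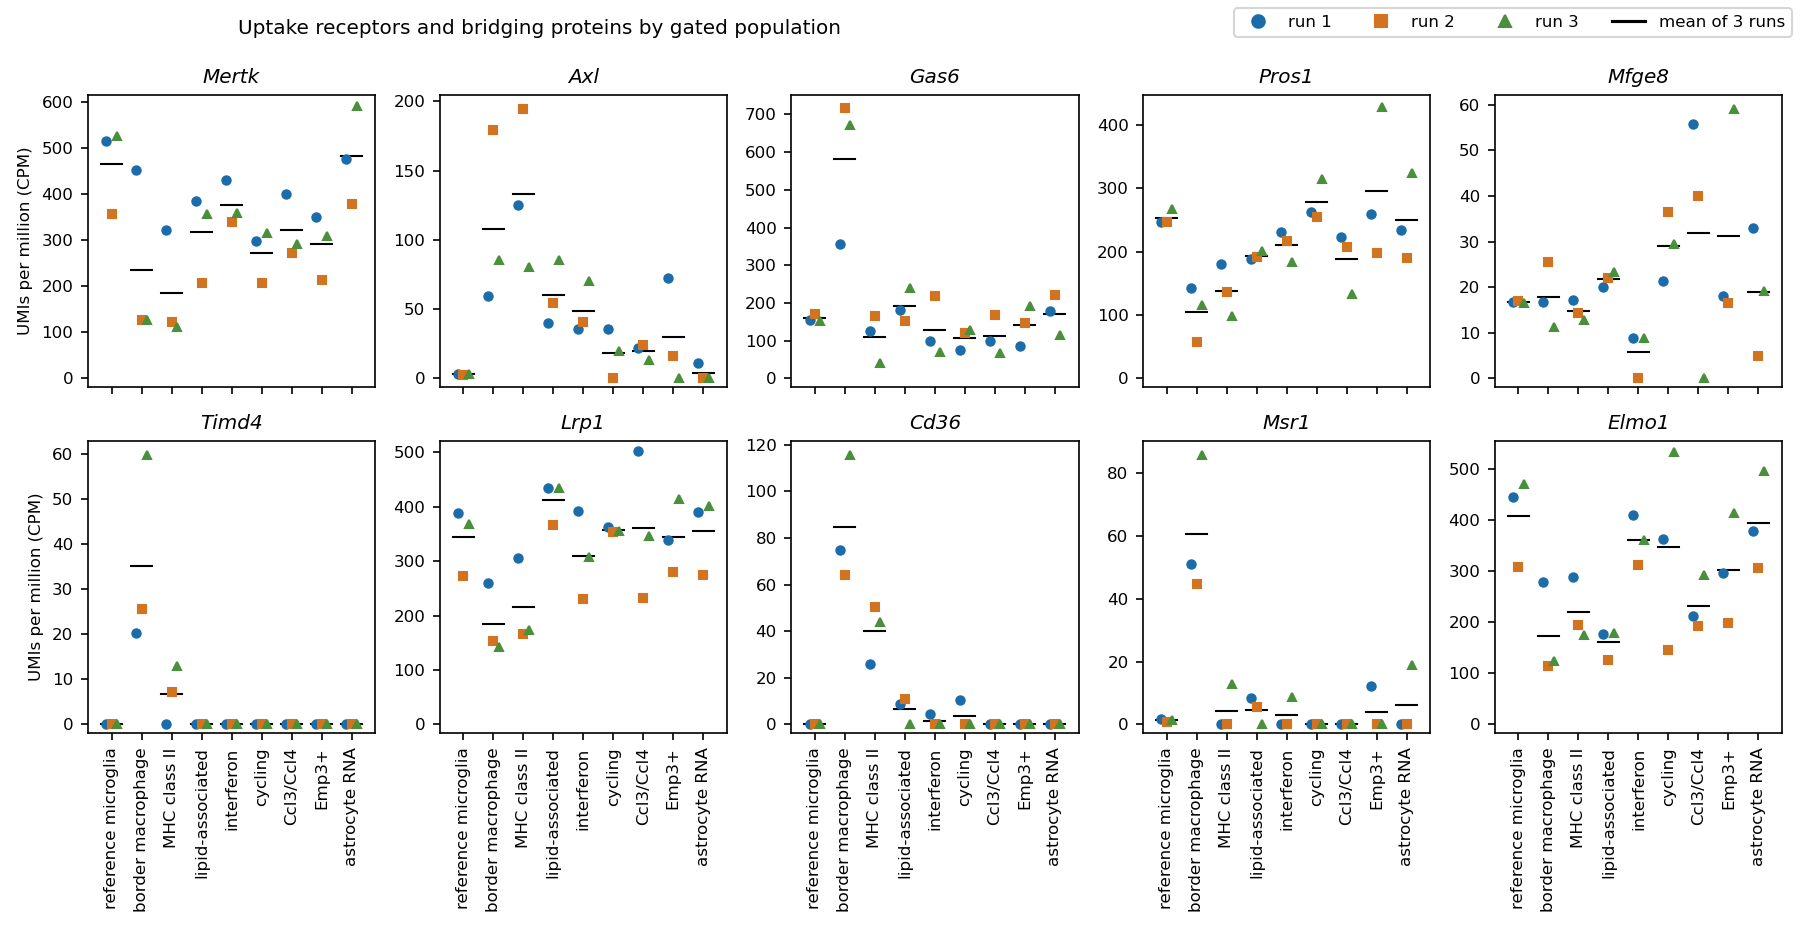
Level of each gene, in CPM on a linear axis that differs between panels, in reference microglia and the 8 other tested populations. Points are the 3 runs and bars their mean. Axl stood at 2.44 to 3.29 CPM in reference microglia and at 59.5 to 195 CPM in border macrophage-like and MHC class II cells.

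Across populations Axl was higher than in reference microglia in 6 of the 8 comparisons. Axl passed the filter on low counts only through populations in which it was high. Its calls and their p-values therefore carry no weight as support, and the levels per run are given beside them. In MHC class II cells it stood at 125, 195 and 80.1 CPM in runs 1, 2 and 3, and in border macrophage-like cells at 59.5, 179 and 85.9 CPM. Every run of both populations lay above every run of reference microglia. The log2 changes were 5.60 ± 0.41 (SE, edgeR quasi-likelihood adjusted p = 4.89e-14) and 5.15 ± 0.41 (edgeR adjusted p = 1.88e-13). In lipid-associated microglia Axl stood at 40.1, 54.8 and 85.3 CPM, a log2 change of 4.27 ± 0.53 (edgeR adjusted p = 1.33e-07). In interferon-signature microglia it stood at 35.6, 40.7 and 70.2 CPM, a log2 change of 4.02 ± 0.67 (edgeR adjusted p = 3.04e-05), from 19 UMIs. These populations, too, did not overlap with the reference in any run.

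The other increases of Axl rested on run 1. Cycling cells held 10, 0 and 2 Axl UMIs in runs 1, 2 and 3 (log2 change 3.08 ± 0.78, edgeR adjusted p = 0.00258), and without run 1 the change was 1.87 with an adjusted p of 0.436. Emp3-positive cells held 12, 1 and 0 (3.90 ± 0.79, edgeR adjusted p = 0.00476), and without run 1 the change was 1.45 with an adjusted p of 0.977. Microglia with Ccl3 and Ccl4 held 6 Axl UMIs, at 22.3, 24.0 and 13.3 CPM. That change of 2.87 ± 1.05 missed the threshold (edgeR adjusted p = 0.0882). In microglia with astrocyte transcripts Axl did not differ detectably, with 6 UMIs, all of run 1.

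The order of the mean Axl levels ran from MHC class II cells (133 ± 57.7 CPM, SD, n = 3 runs) through border macrophage-like cells (108 ± 62.8) and lipid-associated microglia (60.1 ± 23.1) to interferon-signature microglia (48.9 ± 18.6). Neighbours in this order did not differ beyond their spread, with edgeR adjusted p from 0.227 to 1 down to the reference. Reference microglia still supplied 44.5% of all 517 Axl UMIs because they make up 95.2% of cells, with 19.5% from border macrophage-like and 16.8% from MHC class II cells.

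Mertk moved the other way. It fell in border macrophage-like cells (454, 128 and 127 CPM, log2 change -0.78 ± 0.21, edgeR adjusted p = 0.00494) and in MHC class II cells (324, 123 and 111 CPM, -1.18 ± 0.23, edgeR adjusted p = 1.10e-04). In both, run 1 lay above the other runs, and in border macrophage-like cells it overlapped the reference range. Run 1 is also the run with the highest microglia marker sum and the 31.7% of cells with Xist and Y-linked UMIs together. With cells that held both kinds of UMI left out, the border macrophage-like call was kept. The part of these cells and markers in the higher level of run 1 was not tested. The border macrophage-like call was lost with the run block left out (-0.71, adjusted p = 0.141), without replicate 2 (-0.73, 0.129), without replicate 3 (-0.40, 0.223) and with cells of several gates left out (-0.41, 0.200), whereas without replicate 1 the change was -1.55. The MHC class II call was lost with 1 marker fewer per gate (-0.45, adjusted p = 0.0819).

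In the 75 border macrophage-like cells that did not meet the microglia gate Mertk stood at 131, 146 and 86.2 CPM, from 13, 8 and 15 UMIs. The log2 change there was -1.87 ± 0.21 (edgeR adjusted p = 2.96e-11). These cells were chosen for failing the microglia gate and the reference for meeting it. This choice favours a lower level of a gene that is high in microglia, so that p carries no weight as support. Axl in the 75 cells stood at 131, 72.8 and 74.7 CPM, from 30 UMIs. In the 42 MHC class II cells without the microglia gate (5, 14 and 23 per run) Mertk was nearly absent, with 1, 3 and 3 UMIs, whereas Axl stood at 247, 268 and 76.1 CPM. The same choice of cells bears on the Mertk level of these 42. MHC class II cells that did meet the gate carried both, with Mertk at 371, 196 and 226 CPM and Axl at 105, 126 and 84.9 CPM. Monocyte markers summed to 125 to 636 CPM and dendritic cell markers to 79.3 to 729 CPM in the MHC class II population, against 3.42 to 5.05 CPM and 2.14 to 3.01 CPM in reference microglia. Of 5 monocyte markers Ly6c2, Chil3 and F10 were at 0 there in each run, and all 6 dendritic markers were detected in run 3 alone. The part of these cells in the Axl level was not tested.

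**Figure D2:**
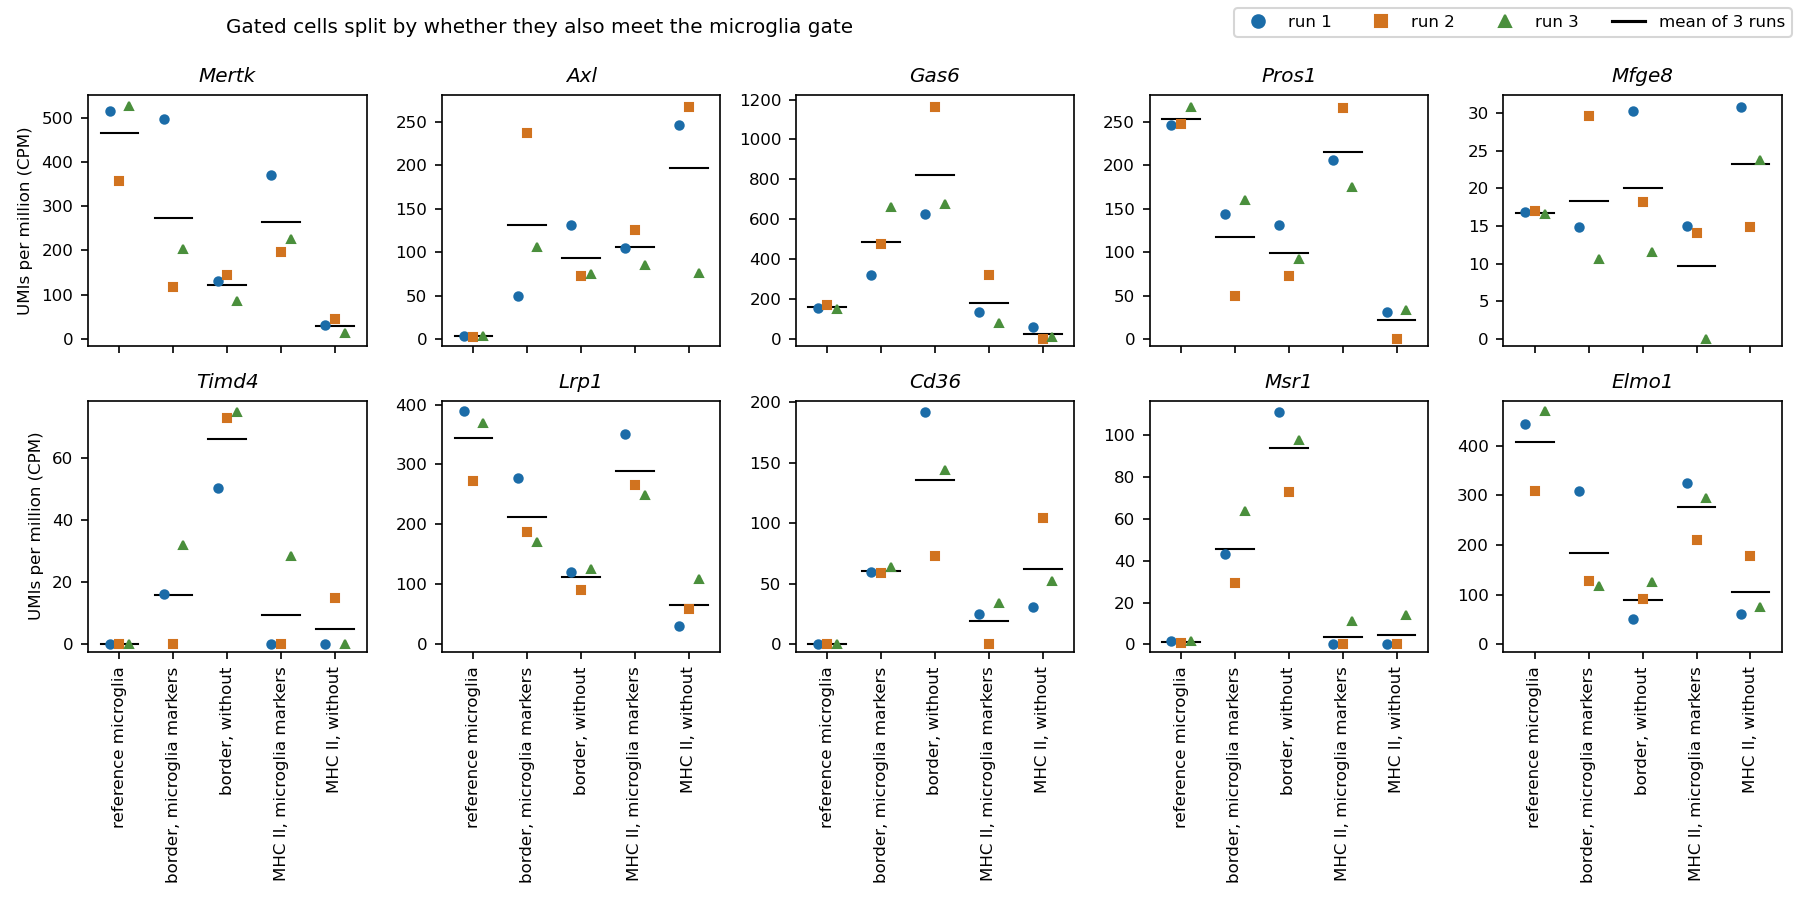
Level of each gene in CPM for reference microglia and for border macrophage-like and MHC class II cells that met or did not meet the microglia gate. Points are the 3 runs and bars their mean. Mertk stood at 86.2 to 146 CPM in border macrophage-like cells without the gate and at 14.3 to 44.6 CPM in such MHC class II cells, while Gas6 stood at 626 to 1165 CPM in the former.

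Elsewhere Mertk fell in cycling cells (299, 207 and 316 CPM, -0.82 ± 0.24, edgeR adjusted p = 0.00955). This call was lost with the run block left out (-0.74, adjusted p = 0.141), without replicate 2 (-0.84, 0.0876) and with DESeq2 (-0.73, 0.0598). In lipid-associated microglia it stood at 386, 208 and 357 CPM, with a change of -0.51 ± 0.22 that missed the threshold (edgeR adjusted p = 0.0988). Each run of the 8 tested populations except microglia with astrocyte transcripts lay below the reference of the same run.

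Timd4, the direct phosphatidylserine receptor (chr11:46810800-46844332, plus strand), was found in few cells, and most of its UMIs came from border macrophage-like cells. These held 17, 4 and 16 UMIs in runs 1, 2 and 3, or 82.2% of all 45, at 20.2, 25.6 and 59.7 CPM. The 18847 reference microglia held 1, 1 and 0. The pooled level was 1122 times that of reference microglia, with an exact 95% interval of 289 to 9608 that covers counting error only. MHC class II cells held 0, 1 and 5 Timd4 UMIs, and the other 6 tested populations held none. Without the microglia gate, border macrophage-like cells stood at 50.4, 72.8 and 74.7 CPM, and with it at 16.2, 0 and 31.9 CPM. Timd4 did not pass the filter on low counts. Without that filter the log2 change was 9.02 ± 0.77 (edgeR adjusted p = 1.12e-29, where 9.13% of 18640 genes passed).

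Lrp1 (chr10:127538161-127621148, minus strand), a large endocytic receptor of the LDL receptor family, was detected in most reference microglia, at 389, 273 and 369 CPM. It was lower in border macrophage-like cells, at 259.6, 154 and 142 CPM (-0.68 ± 0.17, edgeR adjusted p = 0.00213), and in every run it lay below the reference of that run. The call was lost with the run block left out (-0.65, adjusted p = 0.0604) and without replicate 3 (-0.51, 0.0909). In MHC class II cells it stood at 306, 166 and 173 CPM, and its call (-0.46 ± 0.17, edgeR adjusted p = 0.0428) was lost under 9 of the alternatives. Lipid-associated microglia had the highest mean, 412 ± 39.0 CPM (SD, n = 3), a change of 0.35 ± 0.16 that missed the threshold (edgeR adjusted p = 0.132). Set directly against each other, border macrophage-like cells were lower in Lrp1 than lipid-associated microglia by a log2 change of -1.03 ± 0.19 (edgeR adjusted p = 7.46e-05, 16.2% of 4522 genes called).

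Of the bridging proteins, Gas6 (chr8:13465374-13494490, minus strand) was called in 1 of the 8 comparisons, the increase in border macrophage-like cells. It stood at 357, 716 and 672 CPM there and at 156, 171 and 152 CPM in reference microglia, with no overlap. The log2 change was 2.02 ± 0.22 (edgeR adjusted p = 1.18e-09), and without cells that met the microglia gate it was 2.53 ± 0.15 (edgeR adjusted p = 2.45e-21), at 626, 1165 and 678 CPM. MHC class II cells stood at 125, 166 and 41.4 CPM and did not pass the test (-0.46 ± 0.29, edgeR adjusted p = 0.245). The direct difference between these populations was 2.48 ± 0.29 (edgeR adjusted p = 5.71e-08, 8.98% of genes called). Border macrophage-like cells were also higher than the next population in the order, lipid-associated microglia at 191 ± 44.6 CPM (SD, n = 3), by 1.68 ± 0.27 (edgeR adjusted p = 8.34e-06). A Gas6 UMI was held by 84.8% of border macrophage-like cells and 43.4% of reference microglia. At 1000 UMIs per cell the shares were 35.4%, 45.7% and 46.3% against 13.9%, 15.4% and 13.6% in runs 1, 2 and 3.

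Pros1 (chr16:62854307-62929346, plus strand), the other TAM ligand, had the opposite pattern. Reference microglia stood at 247, 247 and 268 CPM and border macrophage-like cells at 143, 57.6 and 116 CPM, without overlap (-0.96 ± 0.20, edgeR adjusted p = 1.99e-04). MHC class II cells stood at 181, 137 and 98.2 CPM (-0.68 ± 0.20, edgeR adjusted p = 0.00943). That second call was lost with the run block left out (-0.65, adjusted p = 0.0610), without replicate 2 (-0.69, 0.0692), without replicate 3 (-0.43, 0.268) and with 1 marker fewer per gate (-0.27, 0.157). Pros1 did not pass the test in the other 6 comparisons. The levels of both ligands in reference microglia varied little between runs, with means of 159.8 ± 9.88 CPM for Gas6 and 254 ± 12.0 CPM for Pros1 (SD, n = 3).

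Mfge8 (chr7:79133768-79149060, minus strand) stood at 16.8, 17.0 and 16.6 CPM in reference microglia of runs 1, 2 and 3, and 6.40% of these cells held a UMI. It did not pass the filter on low counts and stayed untested in the main comparisons. Border macrophage-like cells held 21 UMIs, and their pooled level was 0.990 times the reference (exact 95% interval 0.611 to 1.52). In MHC class II cells this ratio was 0.866 (0.431 to 1.55).

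**Figure D3:**
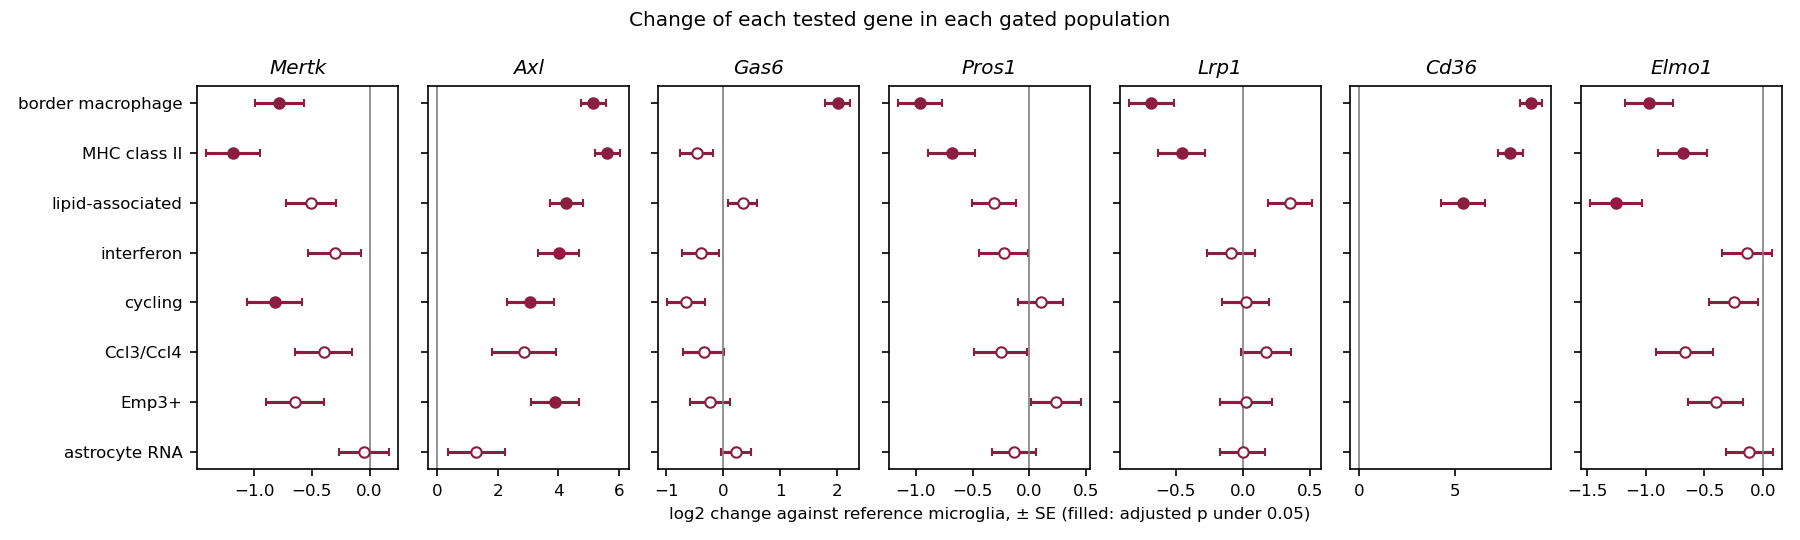
Log2 change against reference microglia with its SE for the 7 tested genes in 8 populations, on a linear axis that differs between panels. Filled points passed an adjusted p under 0.05, and pairs with 3 or fewer UMIs in the population are left out. Axl was higher in 6 populations and Gas6 in 1, while Mertk and Elmo1 were lower in 3.

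Both scavenger receptors had their highest mean level among the tested populations in border macrophage-like cells, which gave 65.0% of all Cd36 and 39.2% of all Msr1 UMIs. Cd36 (chr5:17781690-17888801, minus strand), which binds oxidised lipids and fatty acids, stood there at 75.0, 64.0 and 116 CPM, and 62 of the 171 cells held a UMI. Reference microglia held 4, 3 and 5 Cd36 UMIs in all. The log2 change was 8.94 ± 0.58 (edgeR adjusted p = 1.93e-14), and the pooled ratio was 526 (exact 95% interval 288 to 1050). Cd36 passed the filter on low counts only through border macrophage-like cells, where it was high. The p-values of Cd36 therefore carry no weight as support. MHC class II cells stood at 25.9, 50.5 and 43.9 CPM (7.86 ± 0.64, edgeR adjusted p = 9.18e-12). They differed from lipid-associated microglia, the next in the order (edgeR adjusted p = 0.0311), and did not differ detectably from border macrophage-like cells (which stood 1.08 ± 0.51 above them, edgeR adjusted p = 0.226).

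Cd36 was also called in lipid-associated and cycling cells, on very few UMIs. Lipid-associated microglia held 3, 2 and 0 (5.39 ± 1.14, edgeR adjusted p = 8.26e-04), a pooled ratio of 48.3 with an interval of 13.3 to 147. Cycling cells held 3, all in 1 cell of run 1 (5.05 ± 1.41, edgeR adjusted p = 0.00739), a ratio of 41.2 with an interval of 7.46 to 153. Microglia with Ccl3 and Ccl4, Emp3-positive cells and microglia with astrocyte transcripts held none.

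Msr1 (chr8:39581685-39642673, minus strand), the class A macrophage scavenger receptor, stood at 51.2, 44.8 and 85.9 CPM in border macrophage-like cells and at 1.60, 0.727 and 1.51 CPM in reference microglia. The ranges did not overlap, and the pooled ratio was 44.3 (exact 95% interval 32.3 to 60.5). It did not pass the filter on low counts, and without that filter the log2 change was 5.52 ± 0.41 (edgeR adjusted p = 2.93e-39). In MHC class II cells Msr1 was found in run 3 alone, with 5 UMIs. Among the 75 border macrophage-like cells without the microglia gate (median depth 4049 UMIs), detection of Timd4, Cd36, Msr1 and Axl was counted per cell. Of the 75, 22 held none of the 4 receptors, 27 held 1, 19 held 2, 6 held 3 and 1 held all 4. Such shares depend on depth, and a cell without a UMI may still express the gene.

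**Figure D4:**
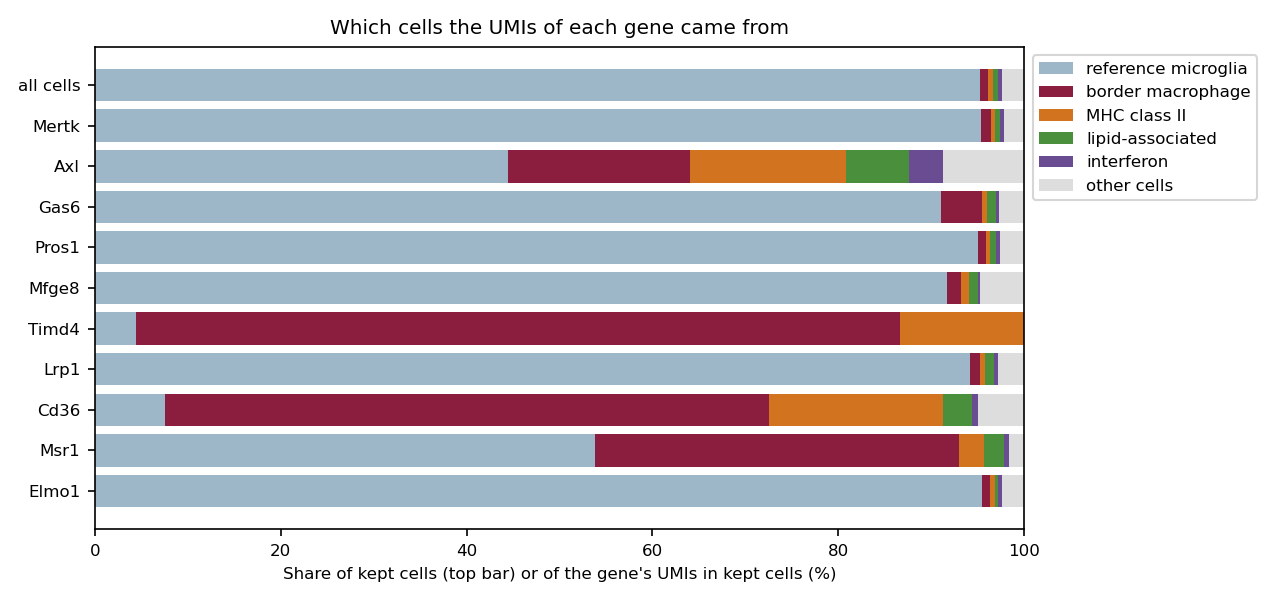
Share of each gene's UMIs that came from each population, in percent of all its UMIs in kept cells, with the share of cells as the top bar. Reference microglia make up 95.2% of cells and gave 95.3% of Mertk UMIs, against 4.44% of Timd4, 7.50% of Cd36, 44.5% of Axl and 53.8% of Msr1 UMIs.

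Elmo1 (chr13:20090596-20608353, plus strand), which with DOCK proteins activates the GTPase Rac during engulfment, stood at 444, 308 and 470.1 CPM in reference microglia, where its mean level was the highest of the 9 populations in the fit but did not differ detectably from the next populations in the order. It fell in lipid-associated microglia, at 177, 126 and 178 CPM, without overlap with the reference (-1.25 ± 0.22, edgeR adjusted p = 6.48e-05). It also fell in border macrophage-like cells (279, 115 and 123 CPM, -0.97 ± 0.20, edgeR adjusted p = 2.71e-04), where the change without replicate 1 was -1.48. In MHC class II cells (289, 195 and 176 CPM, -0.68 ± 0.21, edgeR adjusted p = 0.0107) the call was lost with the run block left out (-0.64, adjusted p = 0.129), without replicate 2 (-0.77, 0.0530), without replicate 3 (-0.45, 0.222), with 1 marker fewer per gate (-0.38, 0.0819) and with cells of several gates left out (-0.47, 0.138). Lipid-associated microglia held the 8 microglia markers at 17491, 24178 and 18086 CPM in sum, below the reference of each run. Set directly against MHC class II cells, they were higher in Lrp1 (0.81 ± 0.19, edgeR adjusted p = 0.00291, 12% of genes called).

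Counted together, 7 of the 10 genes passed the filter, Axl and Cd36 through populations in which they were high, so the counts over these 7 carry no weight as support. In border macrophage-like cells 3 were higher and 4 lower, where 25.4% of all 4522 genes tested were called (15% higher, 10.3% lower), and the median log2 change was -0.68 over the 7 genes and -0.01 over all genes. In MHC class II cells 2 were higher and 4 lower (29.6% of all genes called, 18.2% higher and 11.4% lower). In lipid-associated microglia 2 were higher and 1 lower (20.3%, as 10.9% higher and 9.35% lower), and in cycling cells 2 were higher and 1 lower (24.9%, as 15.5% higher and 9.44% lower). In interferon-signature microglia 1 was called (3.47%), and in Emp3-positive cells 1 was called (0.619%). None of the 7 was called by edgeR in microglia with Ccl3 and Ccl4 (7.63% of genes called), where Axl and Elmo1 had unadjusted p under 0.05 and DESeq2 called 1. None was called in microglia with astrocyte transcripts (0.42%), where no gene of the 7 had an unadjusted p under 0.05 and DESeq2 called none.

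The sexes could be compared within reference microglia by splitting cells into those with at least 2 Xist UMIs and no Y-linked UMI and those with Y-linked UMIs only. The first class held 2584, 3408 and 2429 cells in runs 1, 2 and 3 and the second 2237, 1299 and 1578. Of 8 genes tested, none was called by edgeR (0.488% of 11282 genes called), none had an unadjusted p under 0.05, and DESeq2 called none. The changes from Y-only to Xist-only cells were -0.03 ± 0.04 for Mertk, 0.07 ± 0.04 for Lrp1, 0.01 ± 0.04 for Elmo1, -0.01 ± 0.04 for Pros1 and 0.09 ± 0.05 for Gas6 on the log2 scale. For Axl, with few UMIs, it was -0.14 ± 0.23.

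Other genes of the uptake pathway were counted from 5 lists that exclude the 10 genes. Of 17 further uptake receptors 7 were tested. In border macrophage-like cells 2 rose and 3 fell, where 15% of all genes were higher and 10.3% lower. Those that fell were Itgav (-0.65 ± 0.21), Itgb5 (-0.85 ± 0.21) and Trem2 (-0.90 ± 0.19). Colec12, a scavenger receptor with a collagen-like domain, rose by 9.15 ± 0.63 on the log2 scale (edgeR adjusted p = 6.22e-13) and Stab1, a receptor for phosphatidylserine and modified lipoproteins, by 2.74 ± 0.21 (edgeR adjusted p = 7.49e-14). Colec12 stood at 80.1 CPM there and at 0.123 CPM in reference microglia. It could pass the filter on low counts only where it was high, so its p-value and the count of 2 carry no weight as support. In cycling cells 4 of the 7 fell and none rose (9.44% of all genes lower, 15.5% higher). They were Stab1 (-1.47 ± 0.31), Cd300a (-1.47 ± 0.29), the lipopolysaccharide co-receptor Cd14 (-1.33 ± 0.26) and Trem2 (-0.70 ± 0.20). In MHC class II cells 2 of the 7 fell, Itgav and Trem2, and none rose (11.4% lower, 18.2% higher). In lipid-associated microglia 1 fell, Itgav, and none rose (9.35% lower, 10.9% higher). In interferon-signature microglia 1 fell (3.47% called in either direction), and in microglia with Ccl3 and Ccl4 1 rose (7.63%). Of 15 genes of engulfment signalling 9 were tested, and 1 fell in border macrophage-like cells, a share near the 10.3% of all genes. The kinase gene Syk fell by 1.64 on the log2 scale in microglia with Ccl3 and Ccl4 (edgeR adjusted p = 0.0258). It was the 1 call among the 9 there, where 7.63% of all genes were called. In MHC class II cells 1 of the 9 rose, Rac2, and 1 fell, Syk (18.2% of all genes higher, 11.4% lower).

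In lipid-associated microglia a lysosomal gene and 2 cholesterol exporters were among the genes that rose. Of 9 tested genes of phagosome maturation 2 rose, where 10.9% of all genes did, among them the lysosomal glycoprotein Cd68 (1.27 ± 0.19, edgeR adjusted p = 6.00e-06). Of 5 tested sterol response genes 2 rose (10.9% of all genes), the cholesterol exporters Abcg1 (1.32 ± 0.22, edgeR adjusted p = 2.67e-05) and Abca1 (1.02 ± 0.20, edgeR adjusted p = 2.92e-04). The list medians there were 0.04 and 0.01 against -0.03 over all genes. In cycling cells both fell, Abca1 with a log2 change of -1.85 ± 0.33 (edgeR adjusted p = 2.72e-05) and Abcg1 with one of -1.03 ± 0.37 (edgeR adjusted p = 0.0360). In border macrophage-like cells they moved apart, with Abcg1 lower (-1.17 ± 0.28, edgeR adjusted p = 0.00140) and Abca1 higher (0.57 ± 0.20, edgeR adjusted p = 0.0319). Of 7 tested genes that restrain uptake, the "do not eat me" signal Cd47 rose in interferon-signature microglia by 1.03 ± 0.18 (edgeR adjusted p = 9.38e-05) and fell in lipid-associated microglia (-0.86 ± 0.20, edgeR adjusted p = 0.00226). Sirpa, which encodes the receptor of CD47 on phagocytes, fell in border macrophage-like (-0.67 ± 0.18, edgeR adjusted p = 0.00473), MHC class II (-0.68 ± 0.19, edgeR adjusted p = 0.00470) and cycling cells (-0.66 ± 0.19, edgeR adjusted p = 0.0102). Adam10 was lower in the first pair of these, Adam17 was higher in lipid-associated microglia and Rock1 was higher in MHC class II cells. Of these 7 genes 2 fell in border macrophage-like cells, where 10.3% of all genes did. In MHC class II cells 1 rose and 2 fell (18.2% of all genes higher, 11.4% lower). In lipid-associated microglia 1 rose and 1 fell (10.9% and 9.35%). In cycling cells 1 fell (9.44%), and in interferon-signature microglia 1 rose (3.47% called in either direction).

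Over the 27 sums of 9 populations and 3 runs, the genes whose levels were most like those of Mertk were Tanc2 (Pearson r = 0.91 of log2(CPM + 1)), Qk (0.90) and Foxn3 (0.87). For Axl they were Cybb (0.85), H2-K1 (0.82) and Cd72 (0.81), and for Gas6 Clta (0.78), Selenop (0.78) and Stab1 (0.77). Timd4 was most like Clec10a (0.99), Cd38 (0.99) and Clec4n (0.99), and Msr1 was most like Colec12 (0.81), Reps2 (0.77) and Siglec1 (0.77). These sums share libraries, differ widely in depth, and in the case of Timd4 are mostly 0, so the values describe these sums only.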

How the data were processed

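Cells were tdTomato+ hippocampal myeloid cells in 3 droplet runs. The deposited values are unnormalised UMI counts per gene and barcode. Per the submitters' processing notes Cell Ranger and Seurat 4.0 were used with mm10, and the software version was 3.0.2 for run 1 and 3.1.0 for runs 2 and 3, per the file headers. How the authors selected barcodes is not given in the sources used here. Cells with at least 1000 UMIs, 500 genes and at most 10% mitochondrial UMIs were kept. A cell took the first of 17 marker gates that it met. Clec7a was not used, which left 7 markers for the lipid-associated gate. No doublet caller was run, and cells with Xist and Y-linked UMIs are given beside the results.

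Sums of counts were formed for each population in each run, and 9 populations with at least 10 cells in every run entered 1 edgeR 4.0.16 quasi-likelihood fit (TMM scaling, filter on low counts, run as block, Benjamini-Hochberg adjustment over 4522 genes, threshold 0.05). Same-numbered sums come from 1 library, and their deviations correlated (0.20 to 0.50). In data simulated for the border macrophage-like comparison, 83.0% of genes changed 2-fold and 94.3% of those changed 4-fold were recovered among 3973 genes. For the cycling comparison the shares were 59.8% and 83.3% among 3967 genes. Apart from the changed genes, all simulated sums shared 1 expression profile and were drawn independently. They lacked the deviations that real sums of a run share, so these shares need not hold for the real data. Per cent intervals are exact (Clopper-Pearson) and, like ratios of pooled counts, cover counting error only. Total counts kept per run were 33547705, 24534691 and 24073809. Gene positions are from GENCODE M21 (99.62% of gene IDs matched). The 10 genes, the gates and the pathway lists were chosen with earlier results of these data known, and the dendritic markers and the split by the microglia gate after the data were seen. Pathway genes were named by a rule: up to 4 per direction and comparison, with the largest called change of at least 1 on the log2 scale, a level of 20 CPM or more where higher, and 1 direction over the 3 runs. Named outside this rule were Sirpa, Adam10, Adam17, Rock1, Rac2, Itgav, Itgb5, Trem2, Syk in MHC class II cells, Cd47 in lipid-associated microglia, Abca1 in border macrophage-like cells and Abcg1 in cycling cells. Other called genes of the lists are not named. For each of the 10 genes the 3 most correlated genes were listed.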

Additional observations from a re-analysis of the deposited data

Results flagged for a closer look

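Gas6 was also present in cells outside the main comparisons. The cells with choroid plexus epithelium markers were too few for a test, with 22, 18 and 3 cells in runs 1, 2 and 3. They held 31, 25 and 6 Gas6 UMIs, or 349.5, 438 and 1086 CPM, against 152 to 171 CPM in reference microglia. Gas6 in these cells was picked out of the examined genes and untested populations because every run lay above the reference. The agreement of the runs therefore carries no weight as support. The other bridges did not lie above the reference in every run there, and Timd4, Cd36 and Msr1 had no UMI in these cells. In runs 1, 2 and 3, 50.0%, 16.7% and 0% of them also met the microglia gate. The part of other cells' RNA in this level was not tested.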

How the results depend on the processing

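Of 812 alternative values of single genes none changed its direction with a call, 30 lost and 23 gained a call, and 759 kept their side of the threshold. Leaving out the replicate block (the run) cut the count of called genes of the 7 tested from 6 to 3 in MHC class II cells and changed no other count by over 1.5 times. Leaving out 1 replicate gave 3 to 5 called genes in MHC class II cells, 1 to 3 in cycling cells (3 with all runs) and 0 to 1 in Emp3-positive cells (1 with all runs). In each of the last pair the lowest count came without replicate 1, in MHC class II cells without replicate 2 or 3. Without replicate 1 Cd36 did not pass the filter on low counts. Its calls were then not tested, so the lower counts there are not all lost calls. With cells that met several gates left out, 5 of the genes passed the filter. Axl and Cd36 did not pass it, so their calls were not tested there. The counts over these 5 were 4 in border macrophage-like cells (7 before), 2 in MHC class II, 1 in lipid-associated, 1 in cycling, 0 in interferon-signature and 0 in Emp3-positive cells. With 1 marker fewer per gate the MHC class II count was 2. DESeq2 was run without the filter on low counts and its calls were counted over the 10 genes, so the sets of genes differ. It gave 5 in lipid-associated cells (3 before), which include a gene outside the 7. In interferon-signature cells it gave 2 (1 before), where the added call was Cd36 with 1 UMI. In microglia with Ccl3 and Ccl4 it gave 1 (0 before). That last population had 1 call each without the filter on low counts, with 1 marker more, with 1 marker fewer, with gates on thinned cells, with cells meeting the microglia gate left out of the border macrophage-like and MHC class II sums, and with only the 2 populations in the fit, and 2 with Xist and Y-linked cells left out. With only the 2 populations in the fit Emp3-positive cells had 2 calls, and with cells meeting the microglia gate left out interferon-signature cells had 0. In that last setting, too, Axl and Cd36 did not pass the filter and were not tested. Over all genes, the calls ranged over the alternatives from 574 to 1878 in border macrophage-like cells (1147 in the main analysis), 526 to 1896 in MHC class II (1337), 282 to 1455 in lipid-associated (917), 726 to 2017 in cycling (1127), 165 to 614 in Ccl3 and Ccl4 (345), 113 to 258 in interferon-signature (157), 14 to 148 in Emp3-positive (28) and 11 to 122 in astrocyte-transcript cells (19), and 5 to 146 between the sexes (55). Apart from fewer genes tested or fewer samples, the cause was not tested. The MHC class II alternative without microglia-gate cells could not be fitted, with 5 cells in run 1, nor could any alternative of the immediate early population. With 1 marker more, 4 populations fell under 10 cells, and gates on thinned cells kept border macrophage-like, MHC class II, and Ccl3 and Ccl4 cells. Low depth limits Timd4, Msr1, Cd36 and Axl outside the populations where they were high.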

Other observations

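In run 3, 44 microglia carried at least 4 immediate early genes, against 2 and 1 cells in runs 1 and 2, so this population has no replicate. In these 44 cells Mertk stood at 421 CPM (84 UMIs), Elmo1 at 491 CPM, Lrp1 at 331 CPM, Pros1 at 250.5 CPM and Gas6 at 130.2 CPM. Axl had 2 UMIs, and Timd4, Cd36 and Msr1 had none. The 7 cells with monocyte markers, found in runs 2 and 3, held no Mertk, Gas6, Timd4, Cd36 or Msr1 UMI and 3 Axl UMIs.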
